A study of Rattus norvegicus with 2 samples.

Results

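The genes described here make, take up, move and export cholesterol. They are 35 rat genes chosen by name as enzymes of sterol synthesis or as proteins of cholesterol uptake, trafficking and efflux, and they are set against the 14218 genes that the arrays name. Of the 35, 33 had a probe set that carries a single gene symbol: 18 of the 19 synthesis genes and 15 of the 16 uptake, trafficking and efflux genes. Hmgcs1, which makes the precursor of mevalonate, and Npc1, a lysosomal cholesterol exporter, had no such probe set in the table used here, so no signal is given for them, but both have promoter windows, which are counted further on. For the rest, the brightest probe set over both arrays stands for a gene, and its remaining probe sets are given beside it.

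The arrays read RNA from astrocytes, the main supporting glia of the brain, grown from hippocampi of Sprague-Dawley rats at embryonic day 18. The 5ppase culture was transfected with a construct written 5ppase-IRES2-RFP in one label and 55ppase-IRES-RFP in another, so that 5ppase and a red fluorescent protein come from the same transcript. The control culture carried the vector with IRES2-RFP and no 5ppase. Both have the genotype given as normal, and the series sets cells without calcium signalling (5ppase) against cells in which it is active (control). The labels do not spell out 5ppase, a name commonly used for a phosphatase that removes inositol trisphosphate, which opens calcium stores of the endoplasmic reticulum. They give neither the promoter that drives the construct nor the share of cells that took it up. From each culture 6 ug of total RNA was used for a single-colour Affymetrix array. There was 1 array per group, so every difference below is between these 2 arrays, has no replicate check and carries no test.

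Cholesterol is built from acetyl-CoA through mevalonate, isoprenoid units, squalene and lanosterol, and then a series of sterol intermediates. When sterol in the endoplasmic reticulum is scarce, SREBP transcription factors, acting with NF-Y and Sp1, switch on the enzymes of this route together. When sterol or its oxidised products are plentiful, LXR receptors switch on exporters and lipoprotein carriers. Astrocytes are known as the main makers of cholesterol in the brain and pass it to neurons on particles that carry apolipoprotein E.

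At the brightest probe set, every synthesis enzyme on the arrays had a higher signal in 5ppase than in control, whereas the 4 exporters and carriers among the 35 that could be compared (Abca1, Abcg1, Apoe and Clu) had a lower one. The 18 synthesis genes had a median log2 ratio of 0.98 (5ppase over control, here and below), from 0.14 to 1.63. The 14 uptake, trafficking and efflux genes that could be compared had a median of -0.10, from -0.95 to 0.33. The median of all 8261 compared genes was -0.017. A gene was compared where its signal lay above a floor of 62.0 on both arrays, with at least 1 array reaching 208.4. Of the 18 synthesis genes, 9 were at least 2-fold higher in 5ppase, beside 124 of the 8261 compared genes (1.5%), and 15 were at least 1.5-fold higher, beside 5.25%. Mvd and Hsd17b7, both among the 9, and Ggps1, among the 15, reached 208.4 in 5ppase only. They thus passed the filter through the array where they were higher. A log2 ratio above 0 was found in 18 of 18 synthesis genes and in 0 of the 4 exporters and carriers, beside 47.9% of all compared genes. Of these 4, Clu gave only -0.20, and Abca1 lay far nearer 0 at its next probe sets (-0.16 and -0.22) than at its brightest. In the uptake, trafficking and efflux group 0 of 14 were 2-fold apart either way, beside 2.92% of all compared genes, while 3 were at least 1.5-fold lower, beside 5.46%. Of these 3, Stard4 reached 208.4 in control only and so passed the filter through the array where it was higher.

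**Figure D1:**
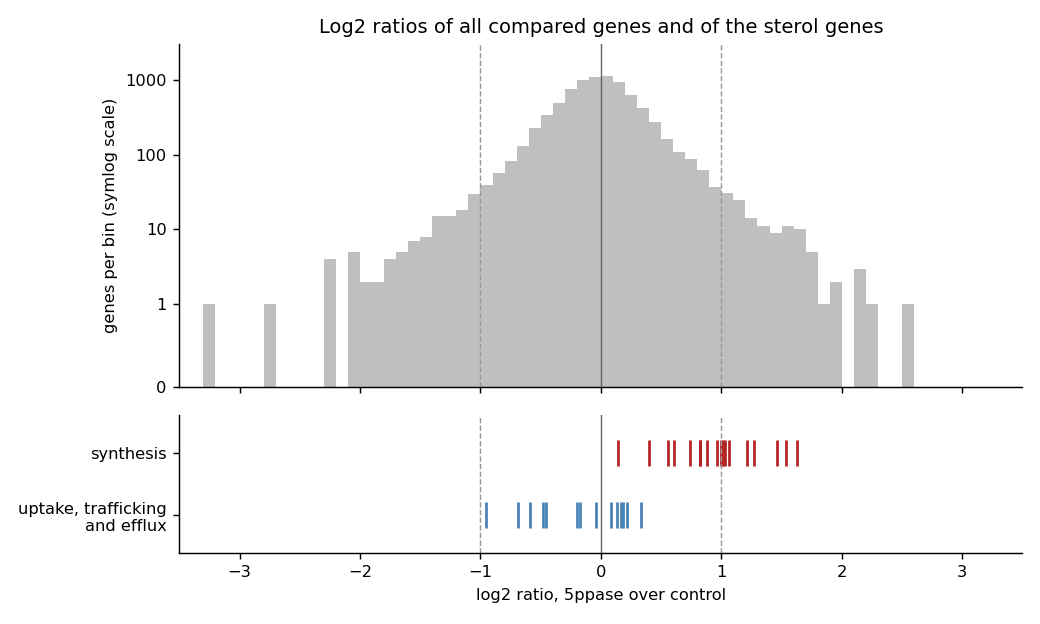
The upper panel counts all 8261 compared genes by log2 ratio of 5ppase over control (symlog axis, bins of fixed width), and each tick in the lower panel is a sterol gene. The 18 synthesis genes all lie right of 0, and 17 of them lie right of the highest uptake, trafficking or efflux gene, Lipa at 0.33. Dashed lines mark a 2-fold difference.

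The only internal repeat is a second probe set of the same gene. Over 1492 genes with exactly 2 compared probe sets, the log2 ratio had a spread of 0.26 (SD between probe sets), which covers probe noise and not differences between cultures. Of the 18 synthesis genes 17 had a ratio above 0.26, beside 18.1% of all compared genes. Of the 14 other genes 8 lay within that spread, 5 below it (21.0% of all compared genes) and 1 above it.

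In the steps up to isoprenoids, 7 genes had a median log2 ratio of 1.06, and 4 of them were at least 2-fold higher in 5ppase. Acat2, the cytosolic thiolase that joins acetyl-CoA units at the start of the route, gave 1335 in 5ppase and 553 in control (log2 ratio 1.27). The 2 kinases that phosphorylate mevalonate in turn differed least. Mvk, the first, gave 306 in 5ppase and 277 in control (0.14), with the same ratio at a second probe set (228.3 and 207.6). Pmvk, the second, gave 848 in 5ppase and 643 in control (0.40). Mvk was thus the only synthesis gene within the probe set spread.

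The next enzymes stood far from the kinases. Mvd, which decarboxylates the kinases' product to isopentenyl diphosphate, gave 318 in 5ppase and 103 in control, a 3.09-fold difference (log2 ratio 1.63) and rank 20 from the top among 8261 genes. Idi1, which isomerises that product, gave 2984 in 5ppase and 1085 in control (1.46, rank 37). Its second probe set went further, with 654.8 in 5ppase and 177.3 in control (1.88). Fdps, which builds farnesyl diphosphate, was bright on both arrays, at 7378 in 5ppase and 3531 in control (1.06).

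Ggps1 leaves the sterol route to make geranylgeranyl diphosphate, the lipid attached to many small GTPases. It gave 248 in 5ppase and 163 in control (0.61), and its probe sets disagreed. The next brightest gave 103.4 in 5ppase and 120.3 in control (-0.22), and the third gave 141.1 in 5ppase and 77.8 in control (0.86). It was the only synthesis gene with a probe set above the floor that pointed towards control.

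The 3 enzymes that carry farnesyl diphosphate to lanosterol were all at least 1.5-fold higher in 5ppase. Fdft1, or squalene synthase, gave 1212 in 5ppase and 525 in control (1.21), and 502.6 in 5ppase and 346.5 in control at its second probe set (0.54). Sqle, the squalene epoxidase that is a control point of the route, gave 2138 in 5ppase and 1214 in control (0.82). Lss, which folds the epoxide into lanosterol, gave 655 in 5ppase and 392 in control (0.74). The other probe set of Lss was under the floor on both arrays.

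All 8 enzymes between lanosterol and cholesterol were higher in 5ppase, with a median log2 ratio of 0.98 and 4 of them at least 2-fold apart. Cyp51, the lanosterol demethylase, gave 5960 in 5ppase and 2922 in control (1.03), and 1702 in 5ppase and 635.3 in control at its second probe set (1.42). Tm7sf2, a sterol reductase, gave 955 in 5ppase and 493 in control (0.96). Both enzymes act at the head of this stretch and differed by similar amounts.

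Msmo1, Nsdhl and Hsd17b7 work one after the other to strip methyl groups from the sterol ring. Msmo1, the oxidase, gave 6649 in 5ppase and 3313 in control (1.01). Nsdhl, the decarboxylating dehydrogenase, gave 1635 in 5ppase and 816 in control (1.0), and 553.0 in 5ppase and 252.1 in control at its second probe set (1.13). Hsd17b7, the reductase that closes the cycle, differed most of the 3, with 550 in 5ppase and 189 in control (1.54, rank 31). Its second probe set gave 233.1 in 5ppase and 121.9 in control (0.94). Cyp51, Msmo1 and Nsdhl lay just past the 2-fold line and Tm7sf2 just short of it. With the arrays at a common median the first 3 fell short as well and the count of 9 became 6.

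The last 3 enzymes were higher in 5ppase by less. Ebp, the sterol isomerase, gave 1057 in 5ppase and 716 in control (0.56). Sc5d, a sterol desaturase, gave 1336 in 5ppase and 756 in control (0.82), with ratios of 0.36 and 0.70 at its other probe sets. Dhcr7, the reductase that finishes cholesterol, gave 816 in 5ppase and 442 in control (0.88). Mvd, Ggps1 and Hsd17b7 reached the bright signal of 208.4 in 5ppase only, and their control signals lay between it and the floor.

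**Figure D2:**
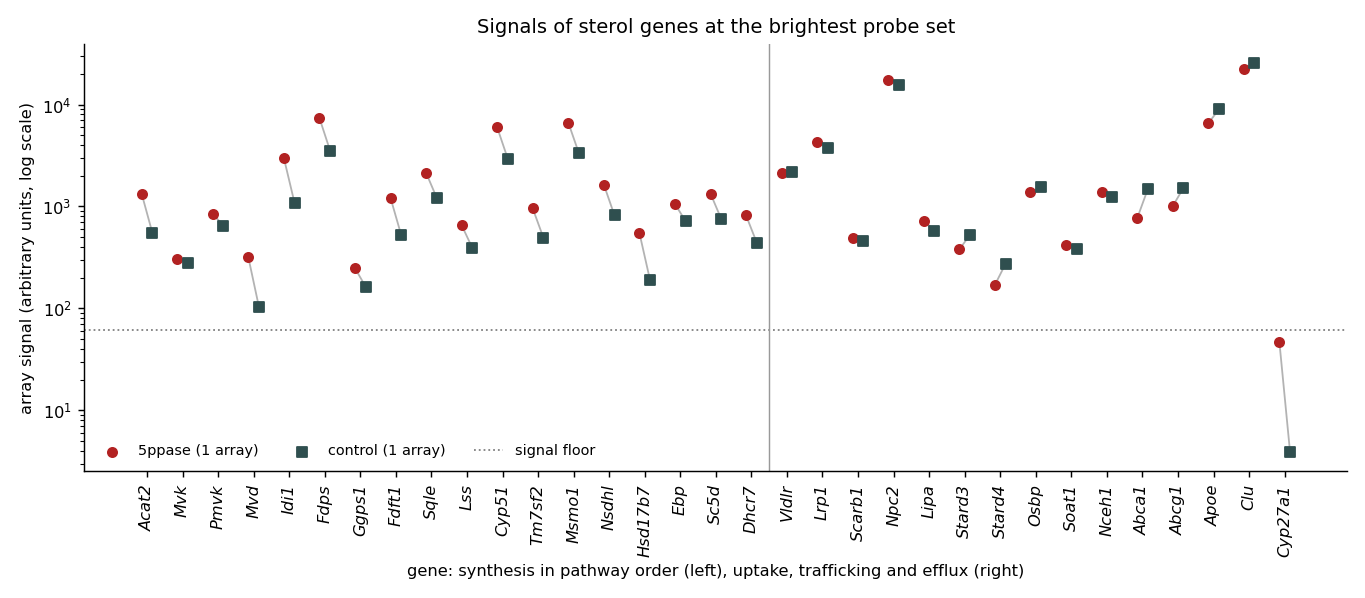
Array signal (arbitrary units, log axis) of 33 sterol genes at their brightest probe set, with 1 point per array: 5ppase as circles on the left of each pair, control as squares on the right. Synthesis genes in pathway order stand left of the vertical line and all slope down from 5ppase to control. In contrast, Stard3, Stard4, Abca1, Abcg1, Apoe and Clu slope up, as do Osbp and, very slightly, Vldlr. Cyp27a1 lies under the dotted floor of 62.0 on both arrays.

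Beyond the brightest probe set, 8 synthesis genes had another 10 above the floor. Of these 10, 9 had a log2 ratio above 0, with a median of 0.78 and 3 at least 2-fold higher. Taking the second brightest probe set alone, 3 of 7 compared synthesis genes were at least 2-fold higher in 5ppase, beside 1.86% of all genes compared in that way, and the median over 8 genes was 0.74. The direction thus repeated at all but 1 of the further probe sets, and the size of single ratios did not always.

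Because the synthesis genes all lay on the same side of 0, the promoters of the members were read for motifs of the factors named above. RefSeq promoter windows of the GRCr8 build, 250 bases before the transcription start and 50 after it, were held for 16 synthesis genes and 12 of the others. Both strands were searched for the letters of the classical sterol regulatory element (TCACNCCAC), its core (CACCCCAC, which overlaps it), the NF-Y box (CCAAT), the Sp1 box (GGGCGG), the E-box (CACGTG) and the LXR element, a direct repeat of AGGTCA. The NF-Y box lay in 13 of 16 synthesis promoters (81.2%), in 7 of 12 of the others (58.3%) and in 39.6% of all 27457 genes with a window. Among the 6961 such genes that were compared on the arrays the share was 39.4%. Of the 16 synthesis promoters 10 held at least 2 NF-Y boxes, and 24 of the 31 boxes in the 16 were on the reverse strand. Neither count was made for all genes, so no background share stands beside it. Npc2, from the other group, also held several boxes. Acat2, Cyp51 and Dhcr7 held none.

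The Sp1 box lay in 13 of 16 synthesis promoters and 9 of 12 of the others, beside 67.2% of the genes compared on the arrays. The full sterol regulatory element in these letters lay in 0 of 16 and 0 of 12, beside 1.25% of all genes, and its core only in Ebp, beside 2.84% of all genes. The E-box lay in 1 of 16 and 2 of 12, beside 7.08% of all genes. The LXR repeat matched no member and 2 of all 27457 genes. These matches describe letters in short windows and were not tested as binding sites.

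The stretches before the annotated gene are shown for the 3 synthesis genes with the largest ratios and for Ebp, the only one with the core. The first 3 were picked after their motifs were seen. Capitals mark the NF-Y box, here always its reverse complement ATTGG, and in Ebp also the core CACCCCAC. All are written on the strand of the gene. Mvd is from chr19:67414975-67415224 (reverse strand), Hsd17b7 from chr13:84722811-84723004 (reverse strand), Idi1 from chr17:66547525-66547774 (reverse strand) and Ebp from chrX:16971212-16971371 (forward strand).
Mvd: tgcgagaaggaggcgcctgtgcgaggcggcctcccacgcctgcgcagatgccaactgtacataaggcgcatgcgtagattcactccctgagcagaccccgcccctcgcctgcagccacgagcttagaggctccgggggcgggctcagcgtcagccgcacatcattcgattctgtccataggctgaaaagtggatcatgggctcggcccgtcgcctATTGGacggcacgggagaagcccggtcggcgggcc
Hsd17b7: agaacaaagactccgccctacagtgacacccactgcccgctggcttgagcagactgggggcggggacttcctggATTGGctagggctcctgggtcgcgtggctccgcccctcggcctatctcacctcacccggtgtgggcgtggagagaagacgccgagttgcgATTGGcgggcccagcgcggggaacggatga
Idi1: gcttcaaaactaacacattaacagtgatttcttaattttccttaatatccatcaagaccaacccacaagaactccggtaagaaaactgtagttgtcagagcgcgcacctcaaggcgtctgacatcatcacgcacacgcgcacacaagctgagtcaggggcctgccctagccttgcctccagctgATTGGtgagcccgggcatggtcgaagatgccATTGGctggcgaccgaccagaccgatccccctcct
Ebp: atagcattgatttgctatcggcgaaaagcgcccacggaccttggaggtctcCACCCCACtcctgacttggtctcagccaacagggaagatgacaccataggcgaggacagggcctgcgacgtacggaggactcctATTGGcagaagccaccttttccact

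In Idi1 the NF-Y boxes began 66 and 35 bases before the start, and in Mvd a box began 35 bases before it. A further box of Mvd spans the start itself and is not shown. Hsd17b7 had boxes 176, 86 and 25 bases before the start; the last lies inside the annotated gene and is not shown, nor is a second box of Ebp 85 bases before its start. Nsdhl, on the X chromosome like Ebp, and Mvk had 5 boxes each, the most of any member. Mvk had the smallest ratio of the synthesis genes.

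**Figure D3:**
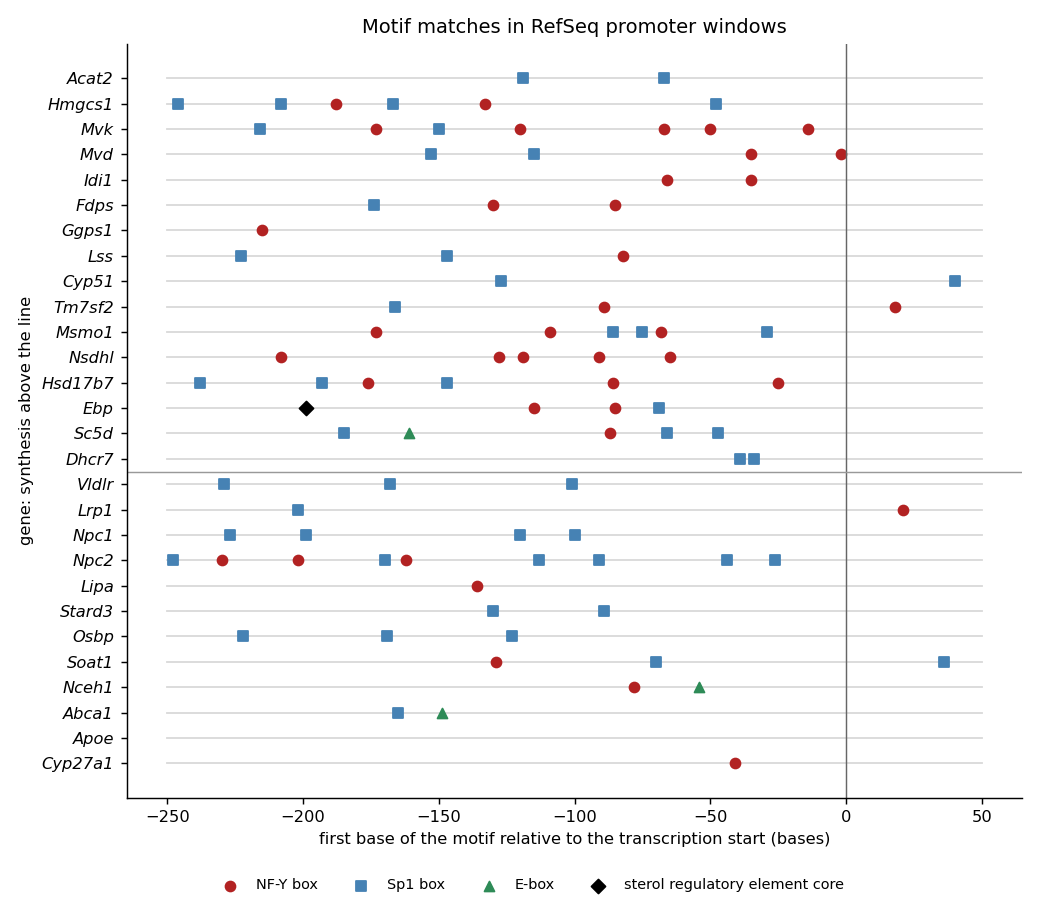
Matches of the NF-Y box (circles), Sp1 box (squares), E-box (triangles) and sterol regulatory element core (diamond) in the promoter windows of 28 sterol genes, by distance of the first base from the transcription start in bases. For Apoe, which has 3 windows, the first is drawn. Its NF-Y boxes lie in the other windows, so Apoe counts among the 7 of 12 given in the text but shows none here. NF-Y boxes stand in 13 of the 16 synthesis rows above the line and in fewer of the rows under it.

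The uptake receptors differed little between the arrays. Vldlr, a receptor for lipoproteins that carry apolipoprotein E, gave 2106 in 5ppase and 2164 in control (log2 ratio -0.04), and its other 3 probe sets gave ratios of -0.24, -0.28 and -0.32. Lrp1, a large endocytic receptor for the same particles, gave 4322 in 5ppase and 3708 in control (0.22). Scarb1, which takes up cholesteryl esters from high density lipoprotein, gave 488 in 5ppase and 463 in control (0.08), but 418.3 in 5ppase and 476.5 in control at its second probe set (-0.19). None of the 3 reached a 1.5-fold difference at any probe set above the floor.

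Genes of lysosomal release and sterol transfer went both ways. Npc2, which hands cholesterol over inside the lysosome, gave 17466 in 5ppase and 15498 in control (0.17), and Lipa, the lysosomal acid lipase, gave 724 in 5ppase and 577 in control (0.33). The sterol transfer proteins had lower signals in 5ppase. Stard3, which binds cholesterol at late endosomes, gave 379 in 5ppase and 527 in control (-0.48).

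Stard4, a soluble sterol carrier known as an SREBP target, gave 170 in 5ppase and 274 in control, 1.61-fold lower (-0.69). Its other probe sets gave 195.7 in 5ppase and 181.4 in control (0.11) and 96.6 in 5ppase and 141.5 in control (-0.55), so its direction was not shared by all 3. Osbp, which trades cholesterol for a phosphoinositide at membrane contacts, gave 1378 in 5ppase and 1547 in control (-0.17). Stard4 thus lay on the side opposite to the synthesis enzymes at 2 of its 3 probe sets.

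The enzymes that form and cut cholesteryl esters were close on both arrays. Soat1, which esterifies cholesterol, gave 415 in 5ppase and 378 in control (0.13), with -0.12 at its second probe set. Nceh1, a neutral cholesteryl ester hydrolase, gave 1396 in 5ppase and 1229 in control (0.18). Both ratios lay within the probe set spread.

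Exporters and carriers had lower signals in 5ppase, with a median log2 ratio of -0.52 over the 4 that were compared. None of the 4 was at least 2-fold lower at its brightest probe set, beside 1.42% of all compared genes. Abca1, which loads cholesterol onto lipid-poor apolipoproteins, gave 763 in 5ppase and 1479 in control, 1.94-fold lower (-0.95). Its next probe sets differed far less, with 337.0 in 5ppase and 377.4 in control (-0.16) and 214.9 in 5ppase and 249.7 in control (-0.22). All 3 pointed the same way, but only the brightest by more than the probe set spread.

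Abcg1, which exports sterol to high density lipoprotein, gave 1006 in 5ppase and 1513 in control (-0.59). Its dimmer probe sets went further, with 81.2 in 5ppase and 183.8 in control (-1.18) and, with the 5ppase signal under the floor, 59.6 in 5ppase and 159.0 in control (-1.36). Its mean over probe sets was -1.04. Apoe, the main apolipoprotein of astrocytes, gave 6522 in 5ppase and 8972 in control (-0.46). Clu, a secreted chaperone found on the same lipoproteins, was very bright, at 22091 in 5ppase and 25303 in control (-0.20), with -0.22 at its second probe set. Both ratios of Clu lay within the probe set spread.

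Cyp27a1, the enzyme that oxidises the cholesterol side chain, was under the floor on both arrays (46.9 in 5ppase and 3.9 in control), so no ratio is given. Over all the uptake, trafficking and efflux genes, 12 further probe sets, from only 7 genes, were above the floor. Of these, 11 had a log2 ratio below 0 and 1 above, with a median of -0.23, which lay within the probe set spread of 0.26. Several belong to the same gene, and no share over all further probe sets was computed.

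The stretch before the annotated Abca1 gene, chr5:72596564-72596723 on the reverse strand of GRCr8, is shown as an example from the efflux genes. Capitals mark its E-box, which began 149 bases before the start. An Sp1 box, not marked, began 165 bases before the start. No NF-Y box lay in its window, but windows of Apoe and Cyp27a1, from the same group, did hold that box.
Abca1: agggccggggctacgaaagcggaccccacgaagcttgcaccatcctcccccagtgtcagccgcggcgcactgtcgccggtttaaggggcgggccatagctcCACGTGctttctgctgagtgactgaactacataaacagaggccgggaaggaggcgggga

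**Figure D4:**
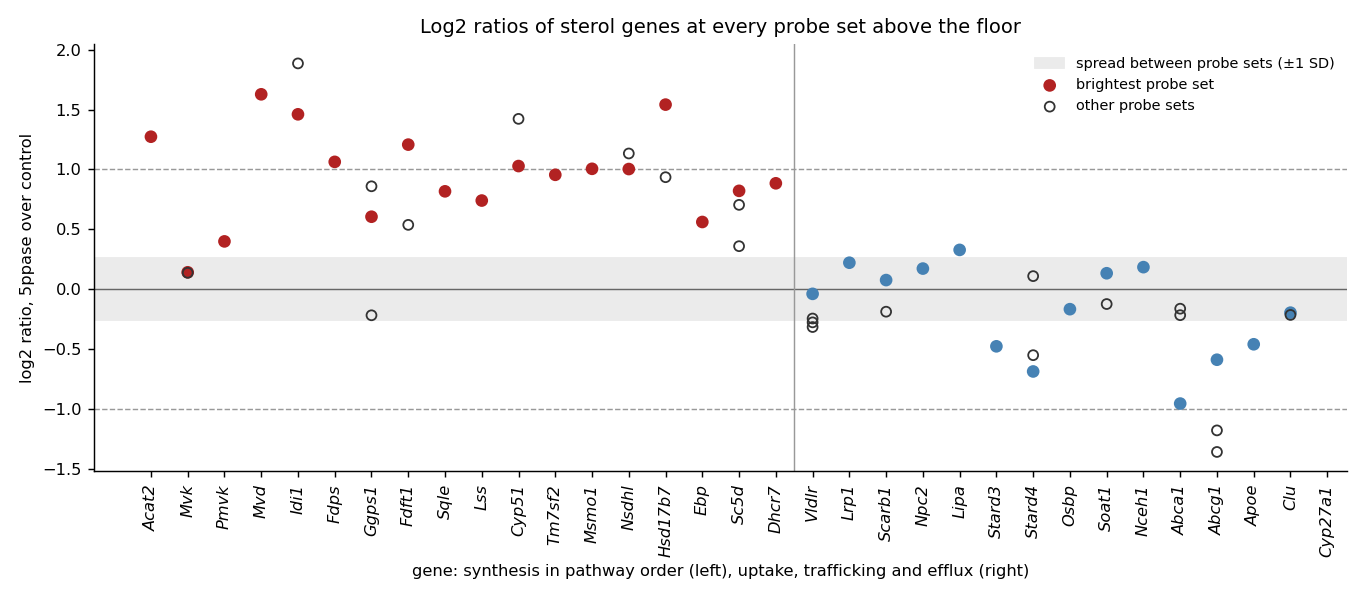
Log2 ratio of 5ppase over control at every probe set above the floor, with synthesis genes in pathway order left of the vertical line. Filled points are the brightest probe set of a gene (red for synthesis, blue for the other genes), open circles its other probe sets, the grey band the probe set spread of 0.26 either way, and dashed lines a 2-fold difference; the efflux genes Abca1, Abcg1, Apoe and Clu lie below 0 at each probe set.

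Of the other genes of sterol synthesis and uptake, 3 of 8 listed had a usable probe set and all 3 had a ratio above 0. Acat1, the mitochondrial thiolase, gave 2168 in 5ppase and 2157 in control (0.01), against 1.27 for its cytosolic relative Acat2, but its second probe set gave 296.7 in 5ppase and 181.4 in control (0.71). Lbr, a nuclear membrane protein with sterol reductase activity like that of Tm7sf2, gave 150.5 in 5ppase and 134.9 in control (0.16). Lrp8, an apolipoprotein E receptor, gave 123.3 in 5ppase and 66.4 in control (0.89). Lbr and Lrp8 were too dim to be compared.

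Among 9 measured sterol-sensing regulators 5 had a ratio above 0 and 4 below, with a median of 0.06. Srebf1, the SREBP gene tied mainly to fatty acid synthesis and itself an LXR target, gave 1641 in 5ppase and 3366 in control (-1.04). Srebf2, the SREBP gene tied mainly to cholesterol, gave 1014 in 5ppase and 753.5 in control (0.43), and Insig1, an SREBP target whose protein holds SREBP back when sterol is plentiful, gave 3634 in 5ppase and 1968 in control (0.89). Srebf2 and Insig1 were picked once their values were known. Of 10 measured carriers and transporters outside the main list, 5 had a ratio above 0 and 5 below. Only Lipe, a lipase that also cuts cholesteryl esters, was at least 2-fold apart, at 224.1 in 5ppase and 107.1 in control (1.07), and a dim second probe set of it could not be read.

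Other features of the cultures moved beside the sterol genes. For the counts by direction that follow, 47.9% of all compared genes had a log2 ratio above 0. Of 12 astrocyte markers 10 were measured, and 8 of these were lower in 5ppase, led by Aqp4 (25.1 in 5ppase and 432.3 in control, at least 6.97-fold lower), Fabp7 (-2.01) and Mlc1 (-1.30), with summed signals of 32562 in 5ppase and 53939 in control. The other 2, Aldh1l1 (49.8 in 5ppase and 62.9 in control) and Slc1a2 (25.7 in 5ppase and 24.1 in control), had a mean signal under the floor. Of 10 markers of dividing cells 9 were higher, led by Ccnb1 (2.13), Mki67 (at least 3.05-fold higher) and Ube2c (1.48), with sums of 6591 in 5ppase and 5641 in control. Fibroblast and meningeal markers summed to 122586 in 5ppase and 136702 in control, with 6 of 8 lower, led by Mgp (-3.26) and Igfbp5 (-2.06). Neuron markers summed to 13152 in 5ppase and 6695 in control, mostly through Stmn2 (1.55), and 6 of 10 of them were under the floor; Tubb3 (1.72) and Gad1 (-1.24) also differed. Oligodendrocyte lineage markers, of which 3 of 9 were measured, summed to 1507 in 5ppase and 2865 in control, led by Cldn11 (at least 22.1-fold lower) and Cspg4 (1.27). Most of the control sum was Cldn11 and Pdgfra, and Pdgfra is also counted with the fibroblast and meningeal markers. Mbp, Mog, Mag, Olig1, Olig2 and Sox10 were under the floor. Microglial markers, of which 3 of 10 were measured, summed to 2607 in 5ppase and 1308 in control. Most of both sums was Tmem119 alone, at 2273 in 5ppase and 1078 in control (1.08). Aif1 (0.21) and Csf1r (0.17) lay near the floor on both arrays. Gapdh gave 26089 in 5ppase and 23263 in control (0.17), and the RNA integrity probe sets at both ends of beta-actin, GAPDH and hexokinase differed in log2 ratio by at most 0.13. In bulk RNA, fewer cells of a type and less RNA per cell cannot be told apart, and the part of these shifts in the sterol result was not tested.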

How the data were processed

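The data are 1 5ppase and 1 control array, grouped by title. The deposited values are linear single-colour intensities from MAS5, per the submitters' processing notes, with version and settings not given in the sources used here. Both columns as deposited have a trimmed mean of 500.2 (2% removed at each end), as scaling by the authors to a common target would give. No sample column was left unused (0).

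Of 31099 probe sets 20832 carry 1 gene symbol in the platform annotation, which can be old, 436 several and 9831 none listed; 20764 of the 20832 matched a GRCr8 RefSeq entry and 0 symbols changed. Only single-symbol probe sets were named. Both arrays were put on 1 trimmed mean, and signals under the pooled 40th percentile (62.0) were raised to it before log2, which understates ratios of dim genes. A gene whose mean lay above this floor was measured (10255). It was compared (8261) if both arrays lay above the floor and 1 reached the pooled 60th percentile (208.4). For a gene under the floor on 1 array, the bright signal over the floor is a lower bound. The steps were tested on simulated data. With 1 array per group there is no test, and the number of arrays limits the precision.

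All members are named; listed pathway genes and cell type markers are named if at least 2-fold apart (markers at most 3 per list), pathway genes otherwise as the 3 brightest of their list. Members, lists and this rule were chosen with earlier results of these data known. Promoter sequences are from RefSeq (GRCr8); 28 of 35 members matched, and no coordinates were given to the probe sets. Python 3.11.15 with numpy, pandas, statsmodels (loess) and matplotlib was used.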

Additional observations from a re-analysis of the deposited data

How the results depend on the processing

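No paired analysis was possible because each group has 1 array. The values as deposited already share a trimmed mean and gave the values reported. Under 3 other scalings (common median, quantile, loess trend removed) 6, 7 and 8 of 18 synthesis genes were at least 2-fold higher in 5ppase, beside 1.37%, 1.54% and 1.56% of all compared genes. The count was 9 of 18 under a 25th percentile floor (1.62% of all genes), 7 of 14 under a 60th percentile floor (1.16%), 8 of 18 with a pseudocount of 6.4 and no floor or filter (7.81%), 8 of 18 with the mean of probe sets (1.40%) and 9 of 18 without the _x_at and _s_at kinds (1.49%). Their median log2 ratio was 0.92 to 0.99 under these. With second brightest probe sets the count was 3 of 7 (1.86%), where fewer genes have a second probe set, and the median 0.74. A 1.5-fold threshold gave 15 (5.25%) and a 3-fold threshold 1 (0.327%). The uptake, trafficking and efflux median was -0.19 to -0.04 under these alternatives. Of these genes 1 was at least 2-fold apart with the pseudocount (Cyp27a1, which the floor removes) and 1 with the mean of probe sets (Abcg1), and 3 passed a 1.5-fold threshold (Stard4, Abca1 and Abcg1). No synthesis gene measured under a scaling, floor or pseudocount alternative had a ratio below 0; Ggps1 did at its second probe set (-0.22). Of 270 single-gene values under alternatives other than the values as deposited, 18 moved by more than the probe set spread of 0.26. Of these 18, 10 came from the second probe sets, where only 15 values could be set against the main ones and 5 stayed the same. Mvd, dim in control, had 0.61 with the floor at the 60th percentile. Signal over background limits Mvd, Ggps1, Stard4 and Cyp27a1 most.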

Other observations

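Fatty acid synthesis shares acetyl-CoA and SREBP control with the sterol route, and its genes were mostly higher in 5ppase by less. Of 10 measured genes 9 had a log2 ratio above 0, beside 47.9% of all compared genes, with a median of 0.55. Of the 9 compared, 3 were at least 1.5-fold higher, beside 5.25% of all compared genes. Acaca (-0.02) and Elovl5 (0.07) lay near 0. Scd, the desaturase of saturated fatty acids, was above the floor in 5ppase only (209.2 in 5ppase and 50.3 in control, at least 3.37-fold higher). Acly, which makes cytosolic acetyl-CoA for both routes, gave 2803 in 5ppase and 1550 in control (0.85), and Fasn, the fatty acid synthase, gave 1720 in 5ppase and 1169 in control (0.56, with 0.20 at its second probe set); both were named after their values were seen.

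Enzymes that use isoprenoids outside the sterol route went both ways. Icmt (0.48), Fntb (0.40) and Pggt1b (-0.27) lay beyond the probe set spread of 0.26. Of 9 measured, 6 had a ratio above 0 and 3 below, with a median of 0.10 and a range of -0.27 to 0.48, and none was 1.5-fold apart. The 3 brightest were Fnta, a shared subunit of protein prenyltransferases (3404 in 5ppase and 3869 in control, -0.18), Rabggtb, which prenylates Rab proteins (3296 in 5ppase and 3174 in control, 0.05), and Nus1, needed for dolichol synthesis (1500 in 5ppase and 1253 in control, 0.26).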
